A study of Mus musculus with 6 samples.

Results

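Genes of glucose uptake and glycolysis were described in the soleus, a postural hindlimb muscle rich in slow fibres, of 129/SV mice that the titles mark as WT. The genes were taken from a fixed list of names, 2 glucose transporters (Slc2a1 and Slc2a4) and 8 enzymes (Hk1, Aldoa, Aldoc, Gapdh, Pgk1, Eno2, Ldha and Ldhb). Each had 1 probe, so that they made up 10 of the 223 probes and of the 203 named genes on a small radioactive DNA array. All 6 samples belonged to 1 group: the hindlimbs had been suspended for 7 days, which unloads the muscle, and were then reloaded for 1 day. No muscle that was never suspended, or was still suspended, was analysed here, so an effect of reloading was not examined. Each sample is known by its title number (175, 176, 177, 178, 202 or 203). They were deposited as biological replicates, and p-values measure only the spread between these samples, which includes that between arrays.

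A muscle fibre takes up glucose through membrane transporters, traps it by phosphorylation, splits it into triose phosphates and oxidizes these to pyruvate. Lactate dehydrogenase then interconverts pyruvate and lactate. Several of these steps are carried out by related proteins from different genes, whose shares differ between tissues and between fast and slow fibres. Slow muscle is known for an oxidative metabolism in which pyruvate and lactate serve largely as fuel for mitochondria.

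Signals are given in parts per mille of the array's total over 221 probes, a scale found from the values. The 10th percentile of each array, called its floor here, was lowest in sample 202 (0.5 per mille), intermediate in 175, 176 and 203 (0.6) and highest in 177 and 178 (0.7). A probe counted as clear of the floor at 2 times that value or more. All values but 1 (Car3 in sample 175) came in steps of 0.1 per mille. Probes differ in how well they bind their target, so the signal of one gene was never ranked against that of another. The slow fibre markers Myh7, Mb and Car3, the fast fibre myosins Myh1, Myh2 and Myh4 and the structural genes Des and Ttn passed this limit in all 6 mice. Of 5 endothelial markers 1 (Pecam1) was clear in all mice, Cdh5 in 5 mice and Kdr, Tek and Flt1 in 0. Of 3 fat cell markers listed only Fabp4 was on the array, and it was clear in all mice, at 7 to 11.3 times the floor. Of 5 macrophage or leukocyte markers only Il1b was on the array, and it lay at 1 times the floor in every array. A single marker does not tell whether fat cells or leukocytes were present. No marker of nerve or red cells listed for this work was on the array.

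Every mouse had a signal clear of the floor for 7 of the 10 genes, some mice for 2 and none for 1. Over all 223 probes, 25.6% were clear in every mouse and 54.3% in none. The 7 were Slc2a4, Aldoa, Aldoc, Gapdh, Pgk1, Eno2 and Ldhb, which cover uptake, the aldolase step, the lower part of glycolysis and lactate conversion. They remained 7 when 3 times the floor was required, whereas Slc2a1 and Ldha, the 2 divided genes, were then clear in 0 mice and, at 1.5 times the floor, in all 6.

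**Figure D1:**
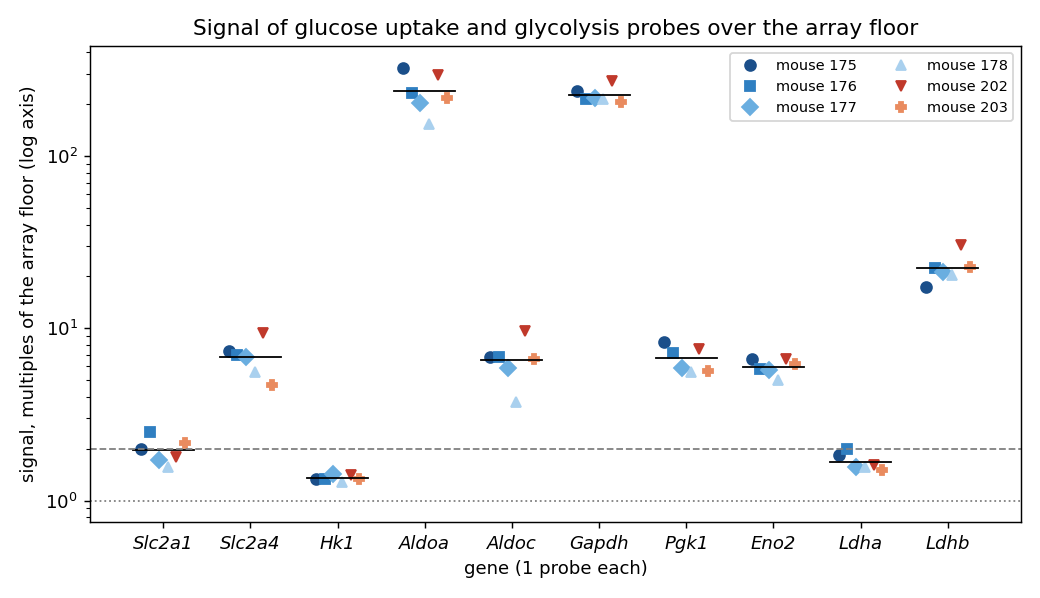
Signal of the 10 probes as multiples of the floor of the same array (vertical log axis), 1 point per mouse with symbols by sample number, and a short line at the mean of 6. The dotted line marks the floor and the dashed line 2 times the floor: 7 genes lie wholly above the dashed line, Slc2a1 and Ldha straddle or touch it and Hk1 stays below it. Heights of different genes are not comparable, since probes differ in efficiency.

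Of the transporters, Slc2a4 encodes the insulin- and contraction-responsive transporter of muscle and fat, and Slc2a1 the transporter of basal uptake, known from red cells, vessel walls and nerve sheaths. Slc2a4 gave 4.4, 4.2, 4.8, 3.9, 4.7 and 2.8 per mille in samples 175, 176, 177, 178, 202 and 203. Sample 203 lay below the other 5, which were close together. In multiples of the floor the signal ranged from 4.67 to 9.4. Its standard deviation (SD) over mice was 0.29 on the log2 scale (n = 6), and 0.12 without sample 203.

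Slc2a1 gave 1.2, 1.5, 1.2, 1.1, 0.9 and 1.3 per mille in the same order. It was clear of the floor in samples 175, 176 and 203 and below 2 times the floor in the others. The mean was 1.96 ± 0.338 times the floor (SD, n = 6), and the whole range spanned 6 steps of the deposited values. Sample 202 was lowest and sample 176 highest, and no group of mice stood apart.

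The next enzyme, hexokinase, phosphorylates glucose and so keeps it in the cell. Hk1, its widely expressed form, gave 0.8, 0.8, 1.0, 0.9, 0.7 and 0.8 per mille in samples 175, 176, 177, 178, 202 and 203. Its multiples of the floor ran from 1.29 to 1.43, so that 0 of 6 mice reached even 1.5. Relative to its own array the signal was thus nearly constant, and it does not tell whether Hk1 was expressed. The SD of log2 signal was 0.18, and 0.055 after each array was divided by its floor (n = 6).

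Aldolase splits fructose bisphosphate into trioses. Aldoa is the muscle form, and Aldoc the form best known from brain. Aldoa gave 195.4, 139.9, 142.6, 107.9, 147.9 and 131 per mille in samples 175, 176, 177, 178, 202 and 203. Sample 175 was highest and sample 178 lowest, a span of 1.81-fold, and the SD was 0.28 on the log2 scale (n = 6). With quantile normalization, which gives every array the same set of values, that SD was 0.14.

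Aldoc gave 4.1, 4.1, 4.1, 2.6, 4.8 and 4 per mille in the same order. The 3 values of 4.1 were equal at the step of the data, and sample 178 stood below all others. Aldoc was 3.71 to 9.6 times the floor and clear in every mouse. Its SD was 0.30 on the log2 scale (n = 6), and 0.11 without sample 178. Both aldolases were thus lowest in sample 178, while the highest mouse was 175 for Aldoa and 202 for Aldoc. Hybridization of one aldolase to the other's probe was not tested.

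Gapdh, which oxidizes glyceraldehyde phosphate and is often used as a control gene, was among the steadiest of the 10. It gave 142.1, 128.6, 151.8, 150.3, 135.9 and 123.4 per mille in samples 175, 176, 177, 178, 202 and 203. No mouse stood apart, and the highest was 1.23-fold above the lowest. The SD was 0.12 on the log2 scale (n = 6), and 7.17% of all probes had a smaller one. Centring the arrays on their median gave 0.16 and quantile normalization 0.22.

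Pgk1, the kinase that makes the first ATP of glycolysis, gave 5, 4.3, 4.1, 3.9, 3.8 and 3.4 per mille in that order. Both samples of the 202 and 203 run lay below all 4 others, sample 202 by 1 step. The SD was 0.19 on the log2 scale (n = 6), and 0.13 without sample 175.

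Eno2, the enolase known as the neuronal form, gave 4, 3.5, 4, 3.5, 3.3 and 3.7 per mille. All 6 mice lay within 7 steps, from 5 to 6.67 times the floor. The SD of 0.11 on the log2 scale (n = 6) was the smallest of the 10 genes as deposited, and 4.04% of all probes had a smaller one. No nerve marker was measured, so a contribution of nerve to the Eno2 and Aldoc signals was not tested. In a whole muscle, fewer cells of a type and less RNA per cell cannot be told apart.

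Lactate dehydrogenase is a tetramer of chains encoded mainly by Ldha, the form known from fast muscle, and Ldhb, the form of heart and slow muscle. Ldhb gave 10.4, 13.4, 14.9, 14.2, 15.3 and 13.6 per mille in samples 175, 176, 177, 178, 202 and 203. Sample 175 was lowest, and the other 5 lay between 13.4 and 15.3. Ldhb was 17.3 to 30.6 times the floor. Its SD was 0.20 on the log2 scale (n = 6), and 0.082 without sample 175.

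Ldha gave 1.1, 1.2, 1.1, 1.1, 0.8 and 0.9 per mille in that order. Samples 202 and 203 were the lowest, and the 4 others were within 1 step of each other. It reached 2 times the floor in sample 176 alone, and its mean was 1.68 ± 0.194 times the floor (SD, n = 6). Where Ldhb was lowest, in sample 175, Ldha was not.

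Promoter sequences from RefSeq are shown for Ldha and Pgk1, the 2 genes that were lower in both samples of the later number run, and for Ldhb, the other chain of the lactate dehydrogenase pair. Of all probes, 13.9% were lower in the same way, and neither gene's difference passed adjustment, as given below. Each line gives the 250 bases before an annotated start, 5′ to 3′ on the gene's strand, in build GRCm38.p6. Capitals mark ACGTG or its reverse complement CACGT, a form of the core that hypoxia-inducible factors are known to bind. The other form, GCGTG or CACGC, was not marked or counted. Windows without capitals can hold it, as that of Ldhb does.
Ldha (chr7:46845554-46845803, plus strand): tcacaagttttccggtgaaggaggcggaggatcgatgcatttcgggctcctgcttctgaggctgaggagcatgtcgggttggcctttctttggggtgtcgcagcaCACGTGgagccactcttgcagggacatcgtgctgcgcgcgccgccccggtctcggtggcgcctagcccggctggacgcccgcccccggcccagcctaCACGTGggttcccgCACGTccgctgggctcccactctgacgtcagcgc
Pgk1 (chrX:106186850-106187099, plus strand): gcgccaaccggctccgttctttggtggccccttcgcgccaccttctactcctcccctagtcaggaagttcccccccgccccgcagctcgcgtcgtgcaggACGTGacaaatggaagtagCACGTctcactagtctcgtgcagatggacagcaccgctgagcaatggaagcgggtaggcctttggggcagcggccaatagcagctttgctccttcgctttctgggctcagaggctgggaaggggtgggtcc
Ldhb (chr6:142507958-142508207, minus strand): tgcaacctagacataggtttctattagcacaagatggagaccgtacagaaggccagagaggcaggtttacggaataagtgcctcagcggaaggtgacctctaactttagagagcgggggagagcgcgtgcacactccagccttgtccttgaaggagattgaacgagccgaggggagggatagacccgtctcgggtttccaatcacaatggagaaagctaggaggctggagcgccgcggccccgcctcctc
The Ldha window held these letters at 3 places, at 2 of which they formed CACGTG, which reads the same on both strands. The Pgk1 window held them at 2 places and the Ldhb window at none. A second annotated start of Ldha had none in its window. RefSeq windows were found for 9 of the 10 genes (not Slc2a4), 14 in all. ACGTG or CACGT was in 5 of them, belonging to Slc2a1, Aldoa (2 windows), Pgk1 and Ldha. The 2 Aldoa windows overlap and hold the same match, which is thus counted in both. Of all 32851 RefSeq windows of this length, 16.6% held ACGTG on either strand, and 6.02% held CACGTG. Slc2a1 and Aldoa held ACGTG or CACGT too, and their signals overlapped between the number runs. A match describes letters in these windows and is neither a measured binding site nor a cause.

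The 10 genes together made up 368.5, 301.5, 329.6, 289.4, 318.1 and 284.9 per mille of the array total in samples 175, 176, 177, 178, 202 and 203. Aldoa and Gapdh supplied most of it, between 254.4 and 337.5 per mille, and the other 8 genes 30.5 to 35.2 per mille. Because signals are parts of a total, a high Aldoa value, as in sample 175, lowers every other probe of that array. Divided instead by the total over all probes but these 10, the SD of log2 signal was 0.34 for Aldoa, 0.16 for Gapdh, 0.25 for Pgk1 and 0.16 for Ldhb (n = 6). Ldhb became narrower on that scale and the other 3 wider. The median SD of the 10 genes was 0.21, beside 0.27 over all 223 probes, whose middle 50% ran from 0.21 to 0.33. Of the 10 genes, 7 lay at or below that median and 0 above the upper quartile.

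**Figure D2:**
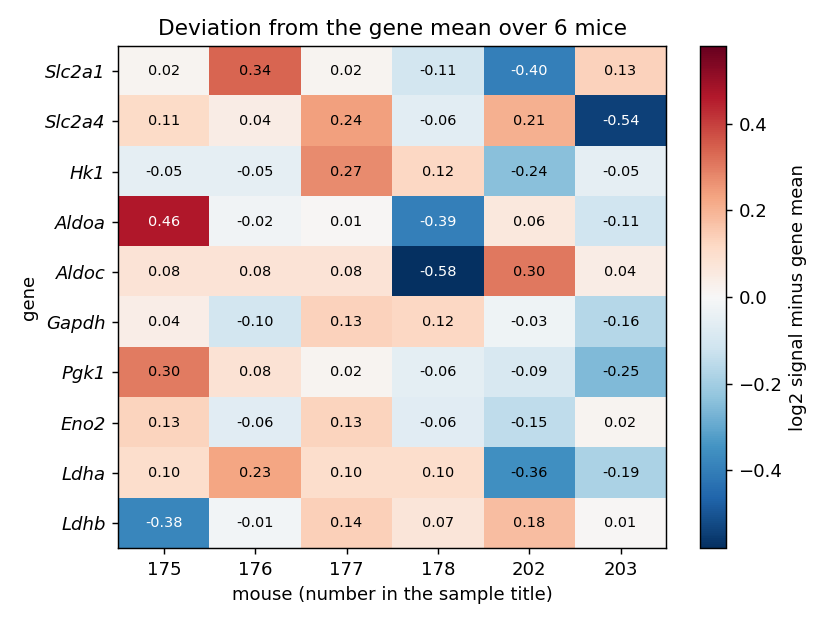
Log2 signal minus the gene's mean over 6 mice, for 10 genes (vertical) and 6 mice (horizontal), with red above and blue below the mean. No mouse is high or low in all genes but sample 177, where all 10 lie above their means; the darkest cells are Aldoc in sample 178 (-0.58), Slc2a4 in sample 203 (-0.54) and Aldoa in sample 175 (0.46).

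The genes did not share one order of mice. In sample 177 all 10 lay above their mean over mice, in sample 175 8 and in sample 176 5, against 4 in each of samples 178, 202 and 203. Sample 177 also had one of the 2 highest floors (0.7 per mille), and sample 202, with the lowest floor (0.5 per mille), was lowest for 4 genes: Slc2a1, Hk1, Eno2 and Ldha. Of these, Slc2a1, Hk1 and Ldha are the genes not clear of the floor in all mice. The part of the floor in these orders was not tested.

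Ratios of 2 probes on the same array do not change when the array is divided by a constant, so the pairs of related genes were compared through them. Such a ratio is read here only for how it varied over mice, not for its level. The log2 ratio of Aldoa to Aldoc was 5.57, 5.09, 5.12, 5.38, 4.95 and 5.03 in samples 175, 176, 177, 178, 202 and 203. It spanned 1.55-fold, with an SD of 0.24 (n = 6), although each gene alone spanned more, 1.81-fold for Aldoa and 1.85-fold for Aldoc. Independent variation of both, on the deposited scale, would give an SD of 0.41. Without sample 175 the SD of the ratio was 0.16.

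The log2 ratio of Ldha to Ldhb was -3.24, -3.48, -3.76, -3.69, -4.26 and -3.92 in the same order. It was lowest in samples 202 and 203 and highest in sample 175, a span of 2.02-fold. Its SD of 0.35 (n = 6) exceeded the 0.30 that independent variation would give on the deposited scale, and was 0.24 within the number runs. The floor enters this ratio through Ldha, which was near it: with 50% of the floor subtracted from each array the SD was 0.40, and with a pseudocount of 0.6 per mille 0.27.

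The log2 ratio of Slc2a4 to Slc2a1 was 1.87, 1.49, 2, 1.83, 2.38 and 1.11. Its SD was 0.44 (n = 6) and its span 2.42-fold, the widest of the 3 pairs over all mice, with the extremes in samples 202 and 203. That order rests on them: without sample 203 the SD was 0.32 against 0.38 for Ldha to Ldhb. Without both samples it was 0.22, against 0.23 for each of the other pairs. Slc2a1 too was near the floor, so the same limit holds as for Ldha.

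**Figure D3:**
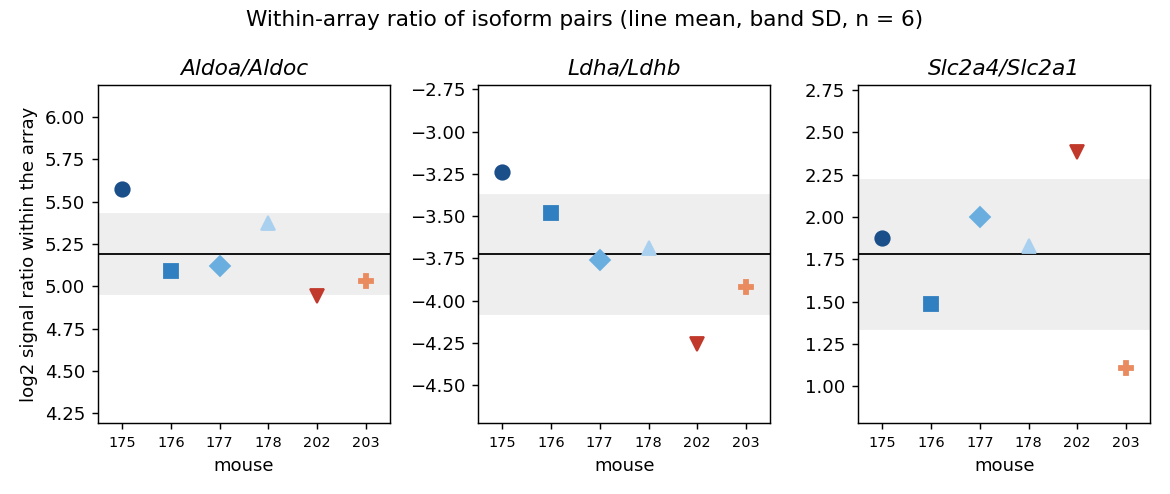
Log2 ratio of the signals of 2 related genes on the same array (vertical) for each of 6 mice (horizontal), in 3 panels that each span 2 log2 units; the line is the mean and the band 1 SD (n = 6). Aldoa/Aldoc and Ldha/Ldhb are lowest in samples 202 and 203, while Slc2a4/Slc2a1 has both its highest and its lowest value there.

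By title number, samples 175 to 178 follow each other and so do 202 and 203, a gap the labels do not explain. Whether these 2 number runs differed for the genes was examined as for a possible batch, and is no comparison of the study. With limma, 0 of the 10 genes passed a Benjamini-Hochberg adjusted p of 0.05 over 223 probes, while 6.28% of all probes did, and 1 gene, Ldha, had an unadjusted p under 0.05, as did 22.9% of all probes. For Ldha the log2 signal of samples 202 and 203 minus that of the others was -0.41 ± 0.18 (SE, limma adjusted p = 0.189, range over alternatives 0.0551 to 0.471), beside a shift of -0.18 in the median probe. With arrays divided by their floor it was -0.16, beside 0.06 in the median probe, and with the pseudocount -0.25. Ldha was below 2 times the floor in both samples. Both samples lay below all 4 others for Ldha and Pgk1, 2 of the 10 genes, and above all 4 for 0. Over all probes these shares were 13.9% and 7.17%. The Pgk1 difference was -0.26 ± 0.19 (SE, limma adjusted p = 0.392, range over alternatives 0.0712 to 0.977). It was -0.018 with arrays divided by their floor and -0.41 with quantile normalization.

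Of the ratios, Ldha to Ldhb differed by -0.54 ± 0.20 (SE, log2, samples 202 and 203 minus the others) and Aldoa to Aldoc by -0.30 ± 0.17 (SE), both without overlap between the runs. An exact two-sided permutation test over the 15 splits of 6 samples gave p = 0.133 for each, and cannot go below 0.0667. How often ratios of other probe pairs separate the runs was not counted, so the lack of overlap cannot be called particular to these pairs. For Slc2a4 to Slc2a1 the difference was -0.051 ± 0.42 (SE, exact permutation p = 1).

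Covariation over mice was described by the SD of the within-array log2 ratio, which is small when 2 genes move in proportion or when both vary little. Over the 21 pairs of the 7 genes clear in all mice its median was 0.30, beside 0.40 over all 1596 pairs of probes clear in all mice. The 7 genes had a median SD of 0.20, beside 0.29 over probes clear in all mice, and a narrow gene gives narrower ratios. Slc2a4 (0.29), Aldoa (0.28) and Aldoc (0.30) were not narrow but near that median of clear probes. The smallest values were those of Gapdh with Eno2 (0.14), Eno2 with Pgk1 (0.17), Gapdh with Pgk1 (0.18) and Aldoa with Pgk1 (0.20). The largest was that of Aldoa with Ldhb (0.44). In 15 of the 21 pairs (71.4%) the SD was below that of independent variation, against 49.4% of the 1596 pairs. This was not tested for the genes as a list, whose pairs share members. Of the other 6 pairs 4 held Ldhb, and the remaining ones were Gapdh with Aldoa (0.31 against 0.30) and with Aldoc (0.37 against 0.32). Those with Ldhb included Aldoa with Ldhb at 0.44 against 0.34, Pgk1 with Ldhb at 0.36 against 0.27, and Eno2 with Ldhb at 0.28 against 0.23.

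**Figure D4:**
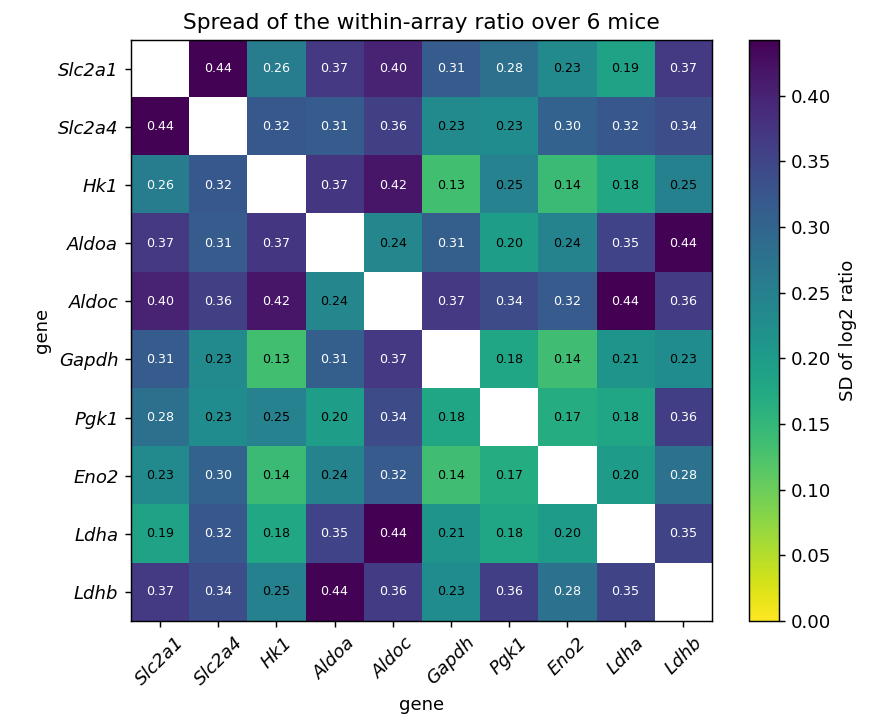
SD over 6 mice of the within-array log2 ratio for each pair of the 10 genes, with light cells for a small SD, which genes that vary little also give. Gapdh, Eno2 and Pgk1 form the lightest cells among genes clear of the floor (0.14 to 0.18), and the Aldoa and Ldhb cell is among the darkest (0.44); Hk1, Slc2a1 and Ldha were near the floor.

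Correlations of log2 signal over the 6 mice were tested exactly over all 720 pairings, two-sided, for every pair of the 223 probes. Of the 45 pairs among the 10 genes, 0 passed a Benjamini-Hochberg adjusted p of 0.05 over 24753 pairs. Nor did any of all pairs (0% called). By Pearson's correlation the smallest exact permutation p of all pairs was 0.00139 (adjusted 0.254), the lowest that 720 pairings can give. A pair passes only if many pairs reach the lowest p together, so this outcome does not tell whether genes covary. At an unadjusted exact permutation p under 0.05 the count was 0 of 45 by Pearson's and 0 of 45 by Spearman's correlation. Of all pairs, 13.7% reached it by Pearson's and 10.6% by Spearman's. The 2 aldolases had r = 0.67 (exact permutation p = 0.200, adjusted 0.492) and rho = 0.82 (exact permutation p = 0.0667, adjusted 0.376), and r = 0.79 without samples 175 and 178, the farthest from the Aldoa median, or 0.51 without samples 178 and 202, the farthest from the Aldoc median. Pgk1 and Ldhb had r = -0.73 (exact permutation p = 0.129, adjusted 0.417) and rho = -0.60 (exact permutation p = 0.242, adjusted 0.602). Without samples 175 and 203, the farthest from the Pgk1 median, r was -0.75, but without samples 175 and 202, the farthest from the Ldhb median, it was 0.19. Aldoa and Ldhb had r = -0.69 (exact permutation p = 0.179, adjusted 0.483) and rho = -0.09 (exact permutation p = 0.919, adjusted 1.0), and r turned to 0.78 without samples 175 and 178. That relation rests on these samples, of which 175 was highest in Aldoa and lowest in Ldhb. Against a total that leaves out both genes of the pair, r was -0.54 for Aldoa and Ldhb, -0.72 for Pgk1 and Ldhb and 0.74 for the aldolases.

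For each of the 7 genes the 2 nearest probes were taken by the SD of the log2 ratio over 6 mice, among 54 candidates clear in all mice. Probes that vary little come near by this measure without moving together with a gene. Since probes were picked by this ratio, a lowest or highest mouse shared with the gene is favoured by the choice. Of the 14 places 1 was taken by a gene of the list, whose members were 6 of the 54 candidates. Nearest to Gapdh was Acadl, an enzyme of mitochondrial fatty acid oxidation (SD 0.060). Acadl gave 3.2, 2.7, 3, 3.2, 2.9 and 2.6 per mille in samples 175, 176, 177, 178, 202 and 203, with the lowest value in sample 203 as for Gapdh. The ribosomal protein gene Rps29 came next for Gapdh (0.10) and first for Slc2a4 (0.20), ahead of Pdha1, the pyruvate dehydrogenase subunit that passes pyruvate to the citrate cycle (0.21).

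Nearest to Aldoa were Hadh, also of fatty acid oxidation (0.19), and Pgk1 (0.20), and nearest to Aldoc were Cox5b, a subunit of cytochrome c oxidase (0.19), and Hadh (0.23). Nearest to Eno2 were Cox4i1, a further oxidase subunit (0.12), and Pdha1 (0.13). These ratios varied more than Eno2 itself (0.11), and both probes vary little (0.10 and 0.11), so they do not show a shared movement. Nearest to Pgk1 were titin (Ttn, 0.12) and Slc2a2 (0.15). Nearest to Ldhb were Cox6a2, the muscle form of an oxidase subunit (0.15), and the lipoprotein lipase Lpl (0.15), whose own SDs were wider (0.32 and 0.22). Cox6a2 gave 34.7, 45.8, 54.8, 61.2, 62.3 and 47.4 per mille and Lpl 2.4, 2.8, 2.7, 3.2, 3.7 and 3.2. In both, sample 175 was lowest and sample 202 highest, as for Ldhb, which the choice by ratio favours.

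Of 47 other genes of glucose handling listed for this work, 6 were on the array, and 2 of them passed the floor limit in each mouse. Pdha1 gave 5.3, 5.4, 5.7, 4.7, 5.4 and 4.8 per mille in samples 175, 176, 177, 178, 202 and 203, with an SD of 0.11 on the log2 scale (n = 6). Slc2a2, a transporter known from liver and pancreatic islets, gave 1.9, 1.8, 1.4, 1.7, 1.3 and 1.3 per mille, 2 to 3.17 times the floor, and touched the limit of 2 in sample 177. Ldhc, the lactate dehydrogenase chain of testis, reached the limit in 2 mice and gave 1.8 per mille in sample 203 against 1.0 to 1.2 in the others. Slc2a3, the neuronal glucose transporter, Pfkfb2, a regulator of phosphofructokinase, and Pcx, which makes oxaloacetate from pyruvate, were clear in 0 mice, at 0.8 to 1.1, 0.6 to 1.0 and 0.6 to 1.0 per mille.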

How the data were processed

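RNA from cryosections of the soleus belly was reverse transcribed with radioactive nucleotide and gene-specific primers and read on 1 array per sample, per the labels' protocols. The authors deposited 223 probes by 6 samples as linear signal. How the arrays were scanned, background-corrected and normalized is not given in the sources used here. Without probes 1M and 1O each array sums to 0.999 to 1.00, so the deposited signal was read as a part of that total. None of the values is at or below 0. Log2 signals were used with no pseudocount. Precision is limited by the number of arrays.

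Probes were named through GEO's platform annotation (205 probes with 1 gene, 0 with several, 18 with none), and 204 were updated by gene number (GRCm38.p6). The 10 genes and all lists were chosen with earlier results of these data known. Named were the 10 genes, the 2 probes nearest to each gene clear of the floor, and measured genes of the lists. The number runs were compared with limma 3.58.1 (lmFit, eBayes) in R 4.3.3. Correlations, ratios and floors used Python 3.11.15 with numpy 2.4.6. Both tests were tested on simulated data. The alternatives were scaling, background, pseudocount, floor limits, number runs and leaving out samples. A total without each correlated pair, a limma fit on probes clear of the floor and the exact permutation test of ratios between number runs were chosen after seeing the data. The ratio differences have least-squares standard errors.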

Additional observations from a re-analysis of the deposited data

Results flagged for a closer look

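In 2 of 13 sets of 6 values (the 10 genes and 3 ratios on the log2 scale), 1 mouse lay farther from its nearest neighbour than Dixon's critical value of 0.625 of the range. Chance gives about 1 in 20 sets, and these sets share the same 6 arrays. The share of all probes flagged by this rule was not counted, so the flags cannot be called particular to these genes. Aldoc was lowest in sample 178, with a gap of 0.703 of the range. Ldhb was lowest in sample 175, with a gap of 0.657.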

How the results depend on the processing

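The count of 7 genes clear of the floor in all mice was 9 at 1.5 times the floor and 7 at 3 times, with the floor at the 5th or 20th percentile and without any 1 sample. The median SD of the 10 genes lay between 0.15 and 0.25 under 8 alternatives, and between 0.18 and 0.23 without 1 sample. Of 140 single SDs, 26 moved by more than the sampling error of an SD. For Ldha/Ldhb the SD of the ratio was 0.24 within number runs and 0.23 with samples 202 and 203 left out, and for Slc2a4/Slc2a1, whose extremes they hold, it was 0.22 with them left out. Without 1 sample the SD ranged from 0.16 (without sample 175) to 0.26 for Aldoa/Aldoc, from 0.26 to 0.39 for Ldha/Ldhb and from 0.32 to 0.49 for Slc2a4/Slc2a1. No pair of the 10 genes passed adjustment under any alternative, while up to 5 of 45 had an unadjusted exact permutation p under 0.05, with arrays centred on their median or divided by their floor, where 11.4% and 8.08% of all pairs did. Within number runs only 48 pairings exist, and with samples 202 and 203 left out 24. Fewer pairings, also without 1 sample, raise the lowest p of the exact test, so passing adjustment was hardly possible there. No gene passed in limma between number runs under any alternative that left more than 1 sample in each run. Of the 10 genes, 0 to 3 had an unadjusted limma p under 0.05 there. In the main fit 22.9% of all probes had such a p, and their share under each alternative was not counted. Of all probes 14 passed, and this count was 22 with arrays divided by their floor, 2 with only probes clear of the floor, and 0 to 20 without 1 sample (8 without sample 175, 5 without 176, 0 without 202, 2 without 203), where 202 or 203 left alone is assumed to vary like the others. Of these 14, 71.4% were higher in samples 202 and 203, against 86.4% with arrays divided by their floor. The cause was not tested. No paired analysis was possible because all samples form 1 group.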
